A study of Mus musculus with 6 samples.

Results

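Collagen genes were taken as the mouse genes whose symbol is Col, a type number, the letter a and a chain number, where a transcript cluster of the array carried that symbol alone. A transcript cluster summarizes the probes of 1 gene, and where a gene had several, the one with the highest mean over the 6 arrays was kept. This gave 44 of the 22180 genes measured, namely 11 fibrillar collagens, 6 basement membrane collagens (Col4) and 27 others. Total RNA came from the whole pancreas of 3 Pdx1Cre;Sirt1ex4F/F mice, called Sirt1-deficient, and of 3 Pdx1Cre control mice, all males of 6 months under standard housing, with 1 array per pancreas. Both groups carry the Pdx1Cre transgene of the strain B6.FVB-Tg(Ipf1-cre)6Tuv/J, and the Sirt1-deficient mice also carry both floxed alleles of Sirt1 exon 4 from B6;129-Sirt1tm1Ygu/J, so the controls were not free of Cre. The driver acts in islet cells and, as a mosaic, in exocrine cells, so the same RNA also holds cells with intact Sirt1, among them cells of other origin. Sirt1 itself, a deacetylase, read 5.59, 5.69 and 5.83 in the Sirt1-deficient pancreata and 5.84, 5.78 and 5.80 in the controls on the log2 scale. Its cluster is not specific to exon 4, so these values do not check the labels.

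Collagens are secreted proteins in which alpha chains wind into a triple helix. Fibrillar collagens assemble into the banded fibrils of connective tissue, Col4 chains into the sheets of basement membranes, and most other types bind to fibrils, form filaments or span the cell membrane. In the pancreas, fibrils lie between lobules and around ducts and vessels and are made mainly by fibroblasts and stellate cells, while basement membranes surround acini, ducts, islets and capillaries. The epithelial cells in which Pdx1Cre acts are not the main source of fibrillar collagen.

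No collagen gene passed the test between the genotypes, and the measured differences were small. In limma, a linear model fitted over all 22180 genes with moderated variances, 0 of 44 passed the study's threshold of an unadjusted p under 0.01, where 1.63% of all genes did, 0.739% being higher and 0.888% lower with Sirt1 deficiency. The count was again 0 at an unadjusted p under 0.05, where 6.66% of all genes passed, and adjusted p-values (Benjamini-Hochberg over all genes) lay between 0.789 and 0.996. The log2 fold changes, taken as Sirt1-deficient minus control, ran between -0.26 and 0.14 with a median of -0.07, beside -0.02 over all genes, and 30 of the 44 were negative, a share of 68.2% beside 54.9% of all genes. The 95% interval lay within a 1.5-fold change either way for 42 of 44 collagens (95.5%, beside 87.0% of all genes) and within a 2-fold change for all 44. The exceptions at 1.5-fold were Col4a4 and Col6a5. Above a mark of background signal, defined below, the interval lay within 1.5-fold for 30 of 31 collagens, beside 90.5% of all genes above it. For the other 13 collagens, near background signal, a narrow interval does not bound a change in RNA. These intervals rest on 3 pancreata a group and on limma's model of the variance, since an exact permutation test of 3 against 3 cannot go below p = 0.1. In RNA from whole tissue, fewer cells of a type and less RNA per cell cannot be told apart.

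**Figure D1:**
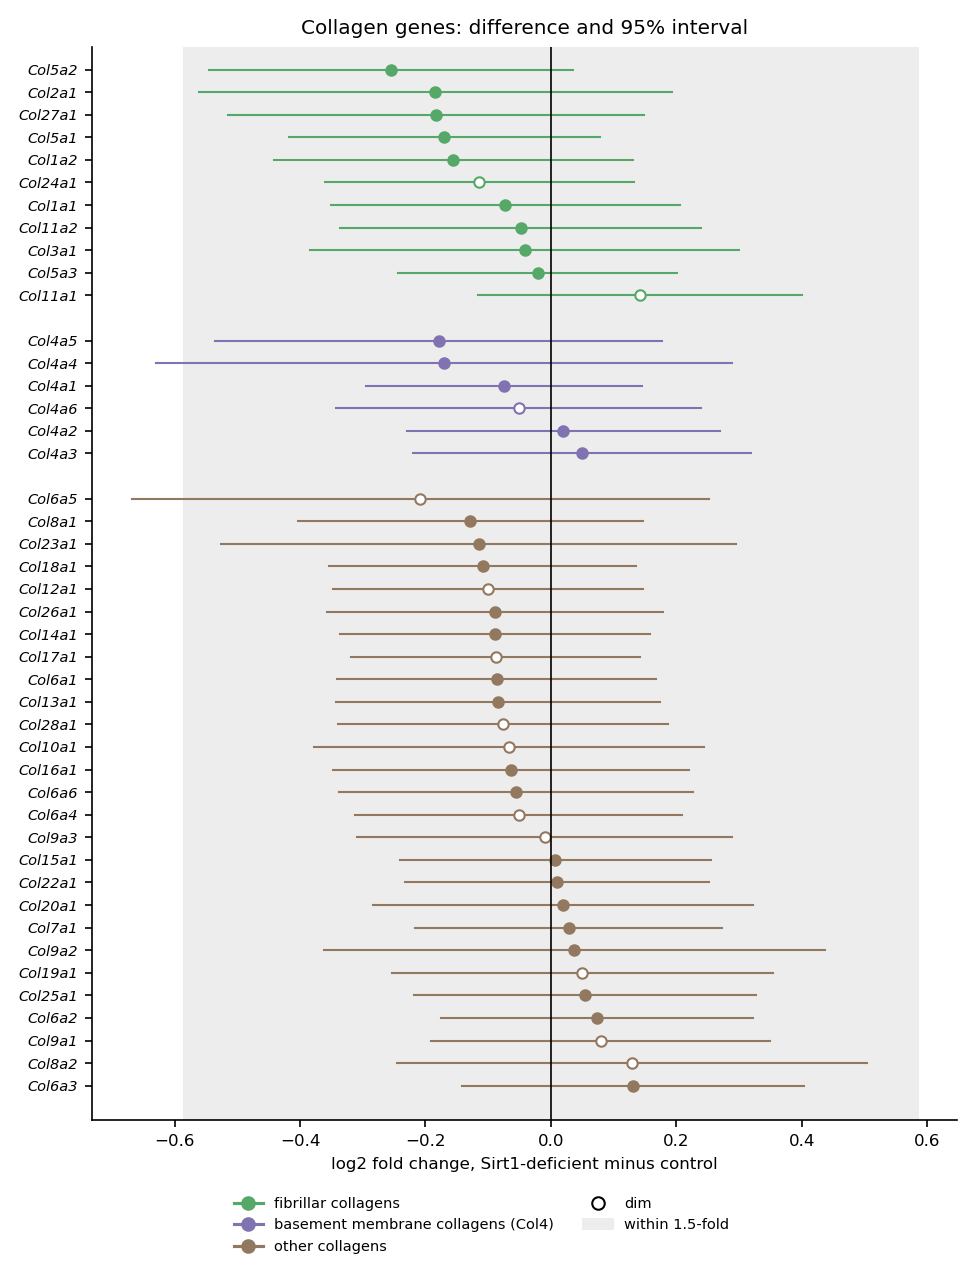
Log2 fold change (Sirt1-deficient minus control, x axis) of each of the 44 collagen genes, with its 95% interval from limma (3 arrays a group), by class; open circles are genes at or below the dim mark, and the grey band is a 1.5-fold change either way. Every interval crosses 0, and those of Col4a4 and Col6a5 reach past the band.

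Of the 44 collagens, 31 had a mean above a log2 value of 4.66, a mark below which 95% of 1088 olfactory receptor genes lay, a family taken here as mostly background signal. The other 13 are called dim, and their values say little about a change. They were Col11a1, Col24a1, Col4a6, Col6a4, Col6a5, Col8a2, Col9a1, Col9a3, Col10a1, Col12a1, Col17a1, Col19a1 and Col28a1. Several of these are known from cartilage, as Col9a1, Col10a1 and Col11a1, or from skin, as Col17a1. A log2 value also depends on a gene's probes, so levels are compared here only within a gene.

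Type I and type III collagen are the main fibril formers of most connective tissue. Type I is made of Col1a1 and Col1a2 chains, and type III of Col3a1 chains alone. The 250 bases before the RefSeq start of Col1a2 and Col3a1 (assembly GRCm38.p6, plus strand, chr6:4505368-4505617 and chr1:45311288-45311537) are shown because these genes carry the interstitial fibril and RefSeq gave a window for both. Capitals mark 3 motifs searched on either strand. The letters CCAAT and TATAAA are common elements of promoters. The repeat CAGACA can be bound by SMAD proteins, which carry TGF-beta signals.
Col1a2: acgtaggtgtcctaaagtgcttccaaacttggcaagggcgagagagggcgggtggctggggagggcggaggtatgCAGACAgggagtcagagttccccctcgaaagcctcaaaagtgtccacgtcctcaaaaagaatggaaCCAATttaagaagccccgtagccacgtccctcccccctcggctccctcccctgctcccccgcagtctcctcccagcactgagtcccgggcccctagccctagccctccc
Col3a1: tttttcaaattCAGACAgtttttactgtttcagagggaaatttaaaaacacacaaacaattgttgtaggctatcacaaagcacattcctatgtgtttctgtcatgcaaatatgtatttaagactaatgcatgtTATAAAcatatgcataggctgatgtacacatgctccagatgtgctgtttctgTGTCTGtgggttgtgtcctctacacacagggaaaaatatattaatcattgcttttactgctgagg
The Col1a2 window held CAGACA and CCAAT, and the Col3a1 window held TATAAA and CAGACA on both strands. Of the 44 collagens, 35 had a window of 250 bases before the start. CCAAT lay in 13 of these (37.1%, beside 33.8% of the 32851 windows of all genes), TATAAA in 5 (14.3%, beside 12.4%) and CAGACA in 9 (25.7%, beside 17.1%). The collagen shares count a gene if any of its windows held the motif, while the shares beside them count windows. Their units therefore differ, which can raise the collagen shares. No marked motif overlaps another in these windows, and a match of letters is a description, not a bound site.

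The fibrillar collagens showed small and mostly negative differences, none of which passed the test. Of 11 members, 10 had a negative log2 fold change and 0 passed at either unadjusted threshold, with a median of -0.11 and all 11 intervals within a 1.5-fold change. Col1a1 read 6.62, 6.81 and 6.88 in the Sirt1-deficient pancreata and 6.73, 7.02 and 6.78 in the controls. The groups overlapped, and the difference was -0.07 (standard error 0.12, limma p = 0.572; 2-sided exact permutation p = 0.6). Col1a2 read 6.17, 6.11 and 6.40 in the Sirt1-deficient pancreata and 6.42, 6.52 and 6.21 in the controls, a difference of -0.16 with a 95% interval of -0.44 to 0.13. Sirt1-deficient pancreas 3 lay near the controls and control 3 near the Sirt1-deficient pancreata. A second, dimmer cluster of Col1a2 differed by -0.02. Col3a1 read 6.30, 6.24 and 6.42 in the Sirt1-deficient pancreata and 6.40, 6.64 and 6.04 in the controls, a difference of -0.04 with an interval of -0.38 to 0.30. Both its highest and its lowest value were controls.

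Type V chains join type I fibrils and limit their diameter. Among them, Col5a2 and Col5a1 had the smallest p-values of the collagens, while Col5a3 had the largest of the fibrillar members. Col5a2 had the smallest p of any collagen, with 4.60, 4.92 and 4.87 in the Sirt1-deficient pancreata and 4.89, 5.19 and 5.08 in the controls. The difference was -0.26 (standard error 0.13, 95% interval -0.55 to 0.03, limma p = 0.078 and adjusted p = 0.789; exact permutation p = 0.2), and the groups overlapped through Sirt1-deficient pancreas 2 and control 1. Col5a1 read 5.50, 5.72 and 5.70 in the Sirt1-deficient pancreata and 5.74, 5.81 and 5.88 in the controls, with no overlap and a difference of -0.17 (standard error 0.11, limma p = 0.156; exact permutation p = 0.1). It was 1 of 2 collagens whose groups did not overlap, a share to be read against 11.7% of all genes. A second, dimmer cluster of Col5a1 read 4.29, 4.71 and 4.53 in the Sirt1-deficient pancreata and 4.62, 5.10 and 4.75 in the controls, a difference of -0.31, and there the groups did overlap. Col5a3 had overlapping groups, at 5.46, 5.37 and 5.48 in the Sirt1-deficient pancreata and 5.48, 5.45 and 5.45 in the controls.

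The remaining fibrillar members included chains known from cartilage. Col2a1, the chain of type II collagen, read 5.05, 4.999 and 5.06 in the Sirt1-deficient pancreata and 5.25, 5.57 and 4.84 in the controls, so that the controls spread on both sides of the Sirt1-deficient values. Its log2 fold change was -0.18 with a 95% interval of -0.56 to 0.19. Col11a2, a chain of type XI collagen, read 4.98, 5.05 and 5.04 in the Sirt1-deficient pancreata and 4.87, 5.31 and 5.04 in the controls, a difference of -0.05. Col27a1 read 5.79, 5.89 and 5.58 in the Sirt1-deficient pancreata and 5.82, 6.23 and 5.76 in the controls, a difference of -0.18 (interval -0.52 to 0.15). In each of these 3 genes control 2 was the highest array. The dim members Col11a1 and Col24a1 had log2 fold changes of 0.14 and -0.11, and Col11a1 was the only fibrillar member with a positive value.

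**Figure D2:**
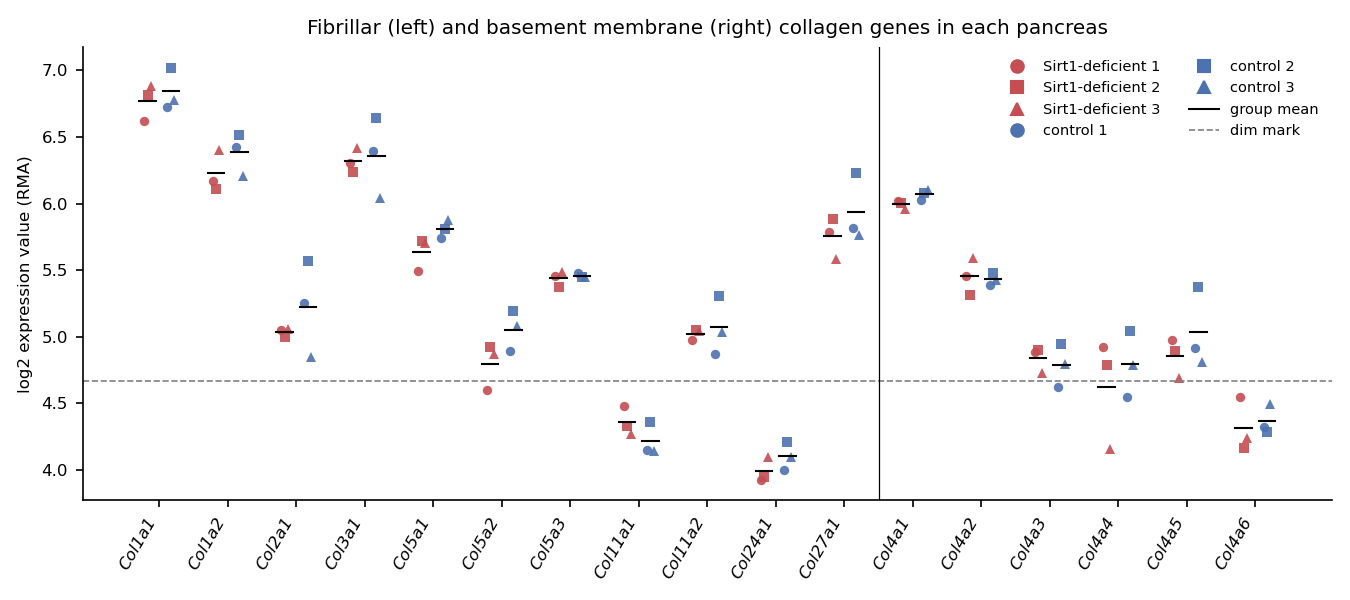
Log2 expression values (RMA, y axis) of the 11 fibrillar and 6 Col4 genes in each pancreas, with Sirt1-deficient arrays in red left of controls in blue, the group mean as a black line and the dim mark as a dashed line. The groups are apart only in Col5a1 and Col4a1, and control 2 (blue square) is the highest point in 8 of the 11 fibrillar genes.

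Basement membrane collagens showed no difference that passed the test. Of 6 Col4 genes, 4 had a negative log2 fold change and 0 passed at either unadjusted threshold, with a median of -0.06. Col4a1 and Col4a2 encode the chains found in nearly all basement membranes. Col4a1 read 6.02, 6.01 and 5.96 in the Sirt1-deficient pancreata and 6.03, 6.08 and 6.10 in the controls. The groups did not overlap but lay close, with a difference of -0.07 (standard error 0.10, limma p = 0.463; exact permutation p = 0.1) and an interval of -0.29 to 0.145. Col4a2 read 5.45, 5.31 and 5.59 in the Sirt1-deficient pancreata and 5.39, 5.48 and 5.43 in the controls, a difference of 0.02 with an interval of -0.23 to 0.27.

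The chains Col4a3, Col4a4 and Col4a5, known from the filtering membrane of the kidney, were near the dim mark. Col4a3 read 4.88, 4.90 and 4.73 in the Sirt1-deficient pancreata and 4.62, 4.95 and 4.79 in the controls. Col4a4 read 4.92, 4.79 and 4.15 in the Sirt1-deficient pancreata and 4.55, 5.04 and 4.79 in the controls. Its negative value of -0.17 came with the low reading of Sirt1-deficient pancreas 3, and without that pancreas it was 0.06. Col4a5 read 4.97, 4.90 and 4.69 in the Sirt1-deficient pancreata and 4.91, 5.37 and 4.81 in the controls, and without control 2 its value of -0.18 was -0.01. The dim Col4a6 had a value of -0.05.

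The 27 other collagens had log2 fold changes between -0.21 and 0.13, a median of -0.06 and 16 negative values, and 0 passed at either unadjusted threshold. By assembly, the medians were -0.05 for the 6 Col6 genes, 0.01 for 9 fibril-associated collagens, -0.07 for 3 short-chain network collagens, -0.05 for 2 multiplexins, -0.09 for 4 transmembrane collagens and -0.08 for the 3 left (Col7a1, Col26a1 and Col28a1). Differences between classes were not tested.

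Col6 chains form beaded filaments that link cells to the matrix around them. Col6a3 had the highest value of the other collagens, with 5.55, 5.47 and 5.77 in the Sirt1-deficient pancreata and 5.53, 5.54 and 5.33 in the controls, a difference of 0.13 (standard error 0.12, limma p = 0.307; exact permutation p = 0.4). Its partner Col6a1 read 7.13, 7.21 and 7.22 in the Sirt1-deficient pancreata and 7.10, 7.40 and 7.30 in the controls, a difference of -0.09. Both pairs of groups overlapped. A second, dimmer cluster of Col6a1 differed by -0.17. The lowest value was that of the dim Col6a5, with 3.01, 3.39 and 3.45 in the Sirt1-deficient pancreata and 3.21, 3.97 and 3.29 in the controls. Its difference of -0.21 was 0.03 without control 2.

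Type VIII collagen forms hexagonal networks in vessel walls and the cornea. Its chain Col8a1 read 4.99, 5.11 and 4.86 in the Sirt1-deficient pancreata and 4.93, 5.21 and 5.20 in the controls, a difference of -0.13 (interval -0.40 to 0.15). The other chain, the dim Col8a2, had a value of 0.13, with 4.52, 4.80 and 4.11 in the Sirt1-deficient pancreata and 4.45, 4.35 and 4.25 in the controls. Sirt1-deficient pancreata 2 and 3 were its highest and lowest arrays. Col23a1, a transmembrane collagen, read 5.56, 5.06 and 5.54 in the Sirt1-deficient pancreata and 5.80, 5.19 and 5.50 in the controls, a difference of -0.12 with overlapping groups. The dim Col9a1 had 0.08, the third highest value of the other collagens.

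Among collagens known at epithelial and vascular basement membranes, Col18a1, the source of endostatin, had a log2 fold change of -0.11 and its relative Col15a1 one of 0.01. Col7a1, which forms anchoring fibrils, had 0.03. Col14a1 and Col16a1, which bind to the surface of fibrils, had -0.09 and -0.06, and the dim Col12a1, of the same family, -0.10. None of these passed the test, and the groups of each overlapped.

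Chains that assemble together were also compared as differences between their log2 values within each array, which removes what both chains share in a sample. In 6 such pairs the exact permutation test (2-sided) gave p-values between 0.3 and 0.6, all 0.6 after adjustment over the 6. Col1a2 minus Col1a1 differed by -0.08 between the genotypes, Col4a2 minus Col4a1 by 0.09 and Col5a2 minus Col5a1 by -0.09. The widest difference was that of Col4a4 minus Col4a3, at -0.22, followed by Col6a3 minus Col6a1 at 0.22, and Col6a2 minus Col6a1 differed by 0.16. In the mouse genome 8 pairs of collagen genes lie next to each other, as Col3a1 and Col5a2 do, and 5 of these pairs had log2 fold changes of the same sign.

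Control 2 read high in the collagens. It was the highest of the 6 arrays in 25 of 44 collagens (56.8%), beside 21.1% of all genes and 16.0% of genes above the dim mark. Only some lists of related genes shared this. Control 2 was the highest array in 7 of 14 fibril-binding genes and in 5 of 12 genes of propeptide removal and cross-linking. The other lists of collagen-related genes had lower shares. Control 2 was highest in 2 of 14 hydroxylation and glycosylation genes, 2 of 14 folding and export genes and 3 of 14 degradation genes. It was highest in 2 of 8 collagen receptors, 3 of 17 Col4 partners and 1 of 16 TGF-beta genes. Among the cell type markers described below, it was highest in 4 of 6 mesothelial, 4 of 9 smooth muscle and pericyte and 4 of 12 fibroblast markers. The counts were 3 of 12 endothelial, 2 of 9 adipocyte, 1 of 10 macrophage, 1 of 8 lymphocyte and 1 of 8 acinar markers. In Schwann cell, duct and islet markers the count was 0. Centred on each gene's mean, the fibrillar collagens averaged -0.09, -0.05 and -0.01 in the Sirt1-deficient pancreata and -0.01, 0.22 and -0.05 in the controls. The other collagens averaged 0.00, 0.01 and -0.05 in the Sirt1-deficient pancreata and -0.02, 0.11 and -0.05 in the controls, and Col4 genes averaged 0.09, -0.04 and -0.15 in the Sirt1-deficient pancreata and -0.08, 0.15 and 0.02 in the controls. In each class control 2 had the highest mean, while controls 1 and 3 lay among the Sirt1-deficient arrays. Without control 2, the median of the fibrillar log2 fold changes was -0.03 with 7 of 11 negative, that of the other collagens 0.02, and 21 of all 44 were negative. Leaving out any single array gave 0 collagens at an unadjusted p under 0.01.

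**Figure D3:**
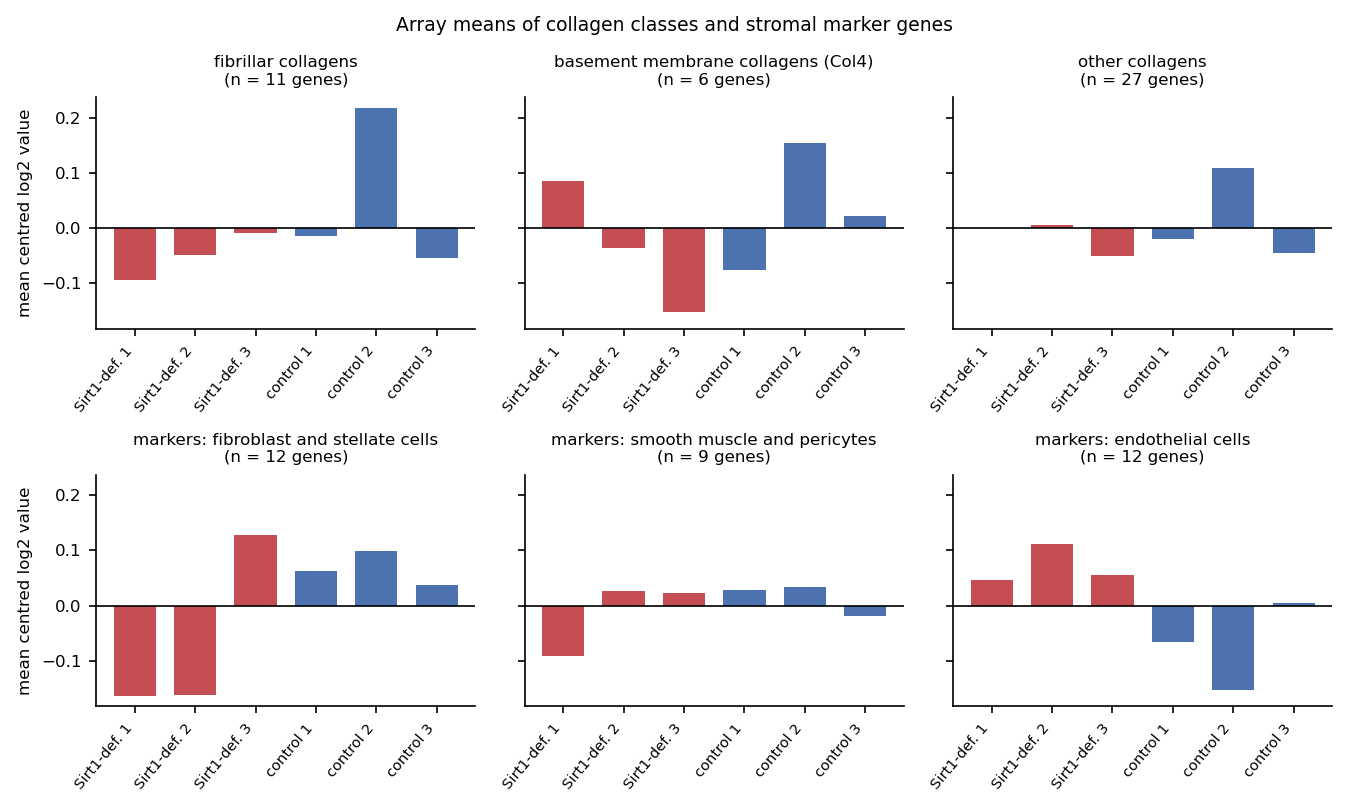
Mean of the log2 values, each centred on its gene's mean over the 6 arrays (y axis), for 3 collagen classes (top row) and 3 lists of stromal marker genes (bottom row), with Sirt1-deficient arrays in red and controls in blue. Control 2 has the highest bar in each collagen class, and the endothelial markers are higher in all 3 Sirt1-deficient arrays.

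Genes that modify, export, bind or degrade collagen were read from 8 lists, which held 109 measured genes. Of these, 2 passed at an unadjusted p under 0.01, both lower in the Sirt1-deficient pancreata, a share of 1.83% beside 1.63% of all genes, and at p under 0.05 there were 8, where 6.66% of all genes passed. No gene of the lists passed after adjustment over all genes.

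Procollagen chains are hydroxylated and glycosylated in the endoplasmic reticulum before they fold. Of 14 such genes 0 passed, with a median log2 fold change of 0.00, and the smallest p was that of P3h2, a prolyl 3-hydroxylase known to act on Col4 (0.34, adjusted p = 0.647 from limma). Folding and export held 14 genes, of which 12 had a negative value, with a median of -0.06. Sec24d, a subunit of the COPII coat that packs cargo, procollagen included, for export, was lower in the Sirt1-deficient pancreata. It read 8.46, 8.44 and 8.58 there and 9.19, 9.02 and 9.15 in the controls, with no overlap and a difference of -0.62 (standard error 0.11, limma p = 0.0002 and adjusted p = 0.206; exact permutation p = 0.1). COPII carries most secreted proteins, digestive enzymes among them. Sec24d was the only 1 of the 14 genes of this list to pass, where 1.63% of all genes did. Serpinh1, which encodes the collagen chaperone HSP47 and is named here after its values were seen, read 6.45, 6.31 and 6.68 in the Sirt1-deficient pancreata and 6.77, 6.92 and 6.89 in the controls. The groups did not overlap, and its difference of -0.38 (limma p = 0.0118; exact permutation p = 0.1) did not pass.

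After secretion, propeptides are cut off and chains are cross-linked. Of 12 such genes 0 passed, with a median of 0.02, and the smallest p was that of Pcolce2, an enhancer of propeptide cleavage (-0.22, adjusted p = 0.780). Of 14 genes of collagen degradation and its inhibitors 0 passed, with a median of -0.03, led by Reck, a membrane inhibitor of metalloproteinases (0.22, adjusted p = 0.811). Of 8 collagen receptors 0 passed, with a median of -0.04, and the dim Itga2, an integrin chain, had the smallest p (-0.23, adjusted p = 0.841). In none of these 3 lists did a gene pass at an unadjusted p under 0.05 in limma.

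Among 14 genes whose proteins bind collagen fibrils, 1 passed, where 1.63% of all genes did, and the median was -0.09. Thbs1, thrombospondin-1, which binds matrix and can activate latent TGF-beta, was lower in the Sirt1-deficient pancreata. It read 6.07, 6.18 and 6.73 there and 7.07, 6.66 and 7.42 in the controls, a difference of -0.72 (standard error 0.22, p = 0.0085 and adjusted p = 0.600 from limma; exact permutation p = 0.2). The groups overlapped. Thbs1 did not pass without Sirt1-deficient pancreas 1 (-0.60) or 2 (-0.65), nor without control 1 (-0.71) or 3 (-0.54). The basement membrane partners of Col4, such as laminins and nidogens, held 17 genes, of which 0 passed, with a median of 0.01. Lamc3, a laminin chain, had the smallest p of them (-0.37, adjusted p = 0.616). Of 16 ligands, receptors and targets of TGF-beta, a main inducer of fibrillar collagen in fibroblasts, 0 passed and the median was -0.08. The ligand gene Tgfb3 was closest (0.41, adjusted p = 0.635), and Ccn2, a target named here after its values were seen, had -0.33 (adjusted p = 0.640). Their signs were opposite.

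**Figure D4:**
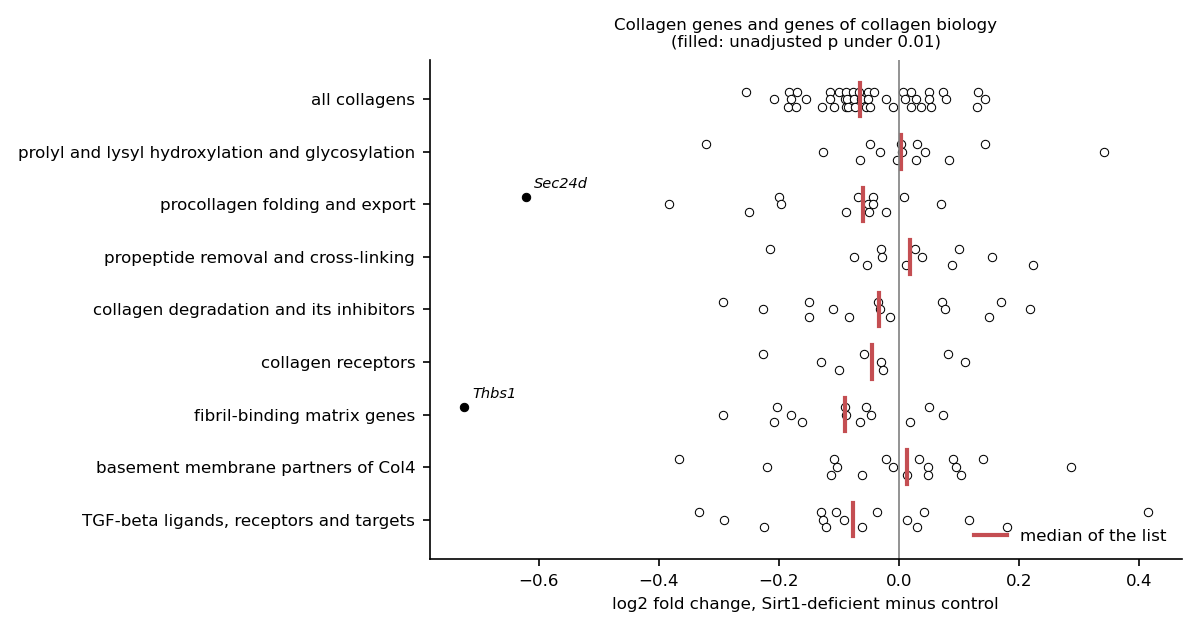
Log2 fold change (Sirt1-deficient minus control, x axis) of each collagen gene and of each gene of 8 lists of collagen biology (rows); filled points have an unadjusted p under 0.01 in limma and red bars are list medians. Only Sec24d and Thbs1 are filled, and the collagens lie between -0.26 and 0.14.

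Markers of the cell types in whole pancreas were read beside the collagens. Of 12 fibroblast and stellate cell markers 0 passed at an unadjusted p under 0.01 and 2 did at 0.05, where 6.66% of all genes passed, with a median of -0.20. The 2 were Pi16 (-0.37) and Lum (-0.29), both lower in the Sirt1-deficient pancreata. A negative value was found in 9 of the 12, and the highest value was that of Dpt (0.22). The centred mean of the 12 was -0.16, -0.16 and 0.13 in the Sirt1-deficient pancreata and 0.06, 0.10 and 0.04 in the controls, so Sirt1-deficient pancreas 3 was above every control. Dcn (decorin), a proteoglycan of fibroblasts, also counted above among the fibril-binding genes, read 10.53, 10.65 and 11.01 in the Sirt1-deficient pancreata and 10.95, 11.13 and 10.72 in the controls. Of 12 endothelial markers 1 passed at 0.01, where 1.63% of all genes did. This was Emcn (endomucin), which was higher in the Sirt1-deficient pancreata (0.44, adjusted p = 0.600 from limma). At 0.05, 3 of the 12 passed, where 6.66% of all genes did. These were Emcn, Kdr (0.37) and Cdh5 (0.32), each higher and without overlap of the groups, where 11.7% of all genes had no overlap. The endothelial median was 0.17, and 4 of the 12 had a negative value. The centred endothelial mean was 0.05, 0.11 and 0.06 in the Sirt1-deficient pancreata and -0.07, -0.15 and 0.01 in the controls, and so was lowest in control 2, where the collagens were highest. The part of these cell types in the collagen values was not tested.

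Mesothelial markers were highest in control 2, with a centred mean of -0.09, -0.10 and 0.07 in the Sirt1-deficient pancreata and -0.10, 0.21 and 0.00 in the controls. Of 6 such genes 0 passed. Of 9 smooth muscle and pericyte, 10 macrophage, 8 lymphocyte, 9 adipocyte, 6 Schwann cell and 7 duct cell markers measured 0 passed, with medians of -0.07, -0.16, -0.05, 0.04, 0.11 and -0.12. Of 7 islet markers 1 passed, where 1.63% of all genes did. This was Ppy (-0.83, adjusted p = 0.250 from limma), which was lower in the Sirt1-deficient pancreata. The islet median was -0.34, and 6 of the 7 had a negative value. At 0.05, 2 of the 7 passed, where 6.66% of all genes did. The centred islet mean was -0.28, -0.03 and -0.23 in the Sirt1-deficient pancreata and 0.30, -0.15 and 0.40 in the controls. The groups overlapped there through control 2. The tissue label held, since the 8 acinar markers measured were above the dim mark, with a median of 0.00 and the digestive enzymes Cpa1, Ctrb1 and Cela1 between 13.57 and 13.79 on all arrays.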

How the data were processed

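The authors hybridized RNA of 6 pancreata to GeneChip Mouse Gene 2.0 ST arrays and deposited log2 expression values, which they made with oligo by RMA (background correction, quantile normalization, summary per transcript cluster). The sources used here do not give versions of these tools. Of 41345 clusters, 23521 had exactly 1 symbol in the platform annotation and gave 22180 genes; 1082 of these had several clusters. Correlations between arrays lay between 0.974 and 0.984. Single probes were not used, so background and exons could not be varied, and the number of arrays limits the precision.

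The contrast Pdx1Cre;Sirt1ex4F/F minus Pdx1Cre was fitted over all genes by lmFit and eBayes of limma 3.58.1 in R 4.3.3, with no covariate. P-values of genes come from limma unless a permutation test is named, and Benjamini-Hochberg adjustment was over all genes. The script was tested on simulated data. Members and the 27 lists were chosen with earlier results of these data known. Genes given in full were fibrillar and Col4 members above the dim mark and the 3 highest and 3 lowest of the other collagens. Per list, up to 4 genes at p under 0.01 or the gene of smallest p were given. Sirt1, Col6a1, the second clusters of Col5a1, Col1a2 and Col6a1, Serpinh1 and Ccn2 were added after values were seen. So were the basement membrane and fibril-surface collagens and the cell type markers. Each mouse is a separate sample by the labels. Sequences are from RefSeq (GRCm38.p6), matched by symbol. Alternatives were other scalings, leaving out dim genes, array weights, robust moderation with an intensity trend, a replicate block, each array left out, and the mean of a gene's clusters.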

Additional observations from a re-analysis of the deposited data

How the results depend on the processing

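The count of collagens past an unadjusted p of 0.01 was 0 under every alternative run. Of 257 values of the 20 collagens given in full, 243 kept their sign and 14 did not; 10 of the 20 never changed sign. With single arrays left out, the log2 fold change ranged between -0.130 and 0.016 for Col1a1, -0.200 and 0.098 for Col3a1 (0.018 with array weights), -0.045 and 0.012 for Col5a3, -0.149 and 0.069 for Col11a2, -0.050 and 0.090 for Col4a2, -0.034 and 0.130 for Col4a3, -0.322 and 0.063 for Col4a4, -0.268 and 0.046 for Col23a1, -0.348 and 0.031 for Col6a5 and -0.031 and 0.313 for Col8a2. With single arrays left out, the median of the other collagens ranged between -0.071 and 0.015 (0.015 without control 2), that of the fibrillar collagens between -0.149 and -0.026 and that of Col4 genes between -0.126 and -0.024. The median of the other collagens was 0.0039 with array weights, and that of the fibrillar collagens was -0.156 with dim genes left out. Negative fold changes, counted as an alternative chosen after seeing the data, numbered 7 to 10 of the fibrillar collagens and 21 to 35 of all collagens. At an unadjusted p under 0.05, Col5a2 passed without control 1 (adjusted p = 0.776), Col2a1 without control 3 (adjusted p = 0.804) and Col8a2 without Sirt1-deficient pancreas 3 (adjusted p = 0.733).

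Over all genes, 361 passed at an unadjusted p under 0.01, 1477 at 0.05 and 3 after adjustment. The 2 genes of collagen biology became 8 at 0.05 and 0 after adjustment, 6 with a second quantile normalization, 6 with dim genes left out (Serpinh1, Lamc3, Tgfb3 and Ccn2 joined in both), 4 with an intensity trend and robust moderation, and between 1 and 3 with single arrays left out. The cause of these shifts was not tested. Sec24d passed at an unadjusted p under 0.01 in every alternative fit, and after adjustment over all genes with an intensity trend and robust moderation alone (adjusted p = 0.030).

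The deviations of same-numbered samples correlated at -0.11, 0.16 and 0.16, positive for numbers 2 and 3 but not for 1, so the numbers were not taken to pair the mice. Sirt1-deficient pancreas 1 correlated best with control 2 (0.13), while Sirt1-deficient pancreata 2 and 3 each correlated best with the control of the same number. With the replicate block, 0 collagens and 2 genes of collagen biology passed at 0.01, and Col5a2 passed at 0.05 only (adjusted p = 0.658 from limma). The replicate block changed no other call of a collagen at an unadjusted p under 0.05. Signal at or below the dim mark in 13 collagens, and 3 arrays a group, limit what could be seen.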
